A study of Mus musculus with 16 samples.

Results

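The comparison described here is the genotype effect of a Cecr2 gene trap that 2 mouse strains share. For every probe set of an expression array, the difference between homozygous mutant and wild type embryos was taken within BALB/cCrl and within FVB/N, and the average of both differences, with equal weight, is called the mean effect. Of 18193 genes on the array, 17039 were annotated to a chromosome other than 6, the chromosome of Cecr2, and 9868 of these (57.9%) had the same sign in each strain. Among them, 76 genes passed the test on the mean effect (an adjusted p under 0.05, called hereafter). The 66 of these that also had an unadjusted p under 0.05 in each strain are referred to as shared genes.

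Expression was measured in 16 single female embryos, 1 per Affymetrix array, in 4 groups of 4. The groups were wild type BALB/cCrl, BALB/cCrl homozygous for the allele Cecr2Gt45Bic, wild type FVB/N and FVB/N homozygous for Cecr2Gt45Bic. All embryos had 11 to 14 somites, an age at which the cranial neural folds are closing, and had been freed of their extraembryonic membranes. Each mutant line had been backcrossed for over 10 generations. BALB/cCrl mutants came from matings between heterozygotes, while FVB/N mutants came from matings between homozygotes, so in FVB/N the genotype cannot be told apart from the mating and the colony. The somite number of each embryo was not given in the sources used here, so genotype and small differences in stage cannot be told apart either. Levels are log2 expression values that the authors normalised over all 16 arrays.

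Cecr2 encodes a bromodomain protein that works with the imitation switch (ISWI) ATPases, motor proteins that slide nucleosomes along DNA. Mice that lack it can develop exencephaly, in which the cranial neural tube fails to close, and the strain background sets how often: BALB/cCrl is susceptible and FVB/N is largely resistant. The average over both strains asks which expression differences go with the mutation on either background.

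Correlations between arrays within a group lay between 0.9946 and 0.9979. In a principal component analysis the strains were divided by component 1 (39.3% of the variance), and component 2 took 9.39%. On component 2 all mutants lay below all wild types of their strain. BALB/cCrl mutants ranged from -9.6 to 0.5 and wild types from 3.7 to 12.5. In FVB/N, mutants ranged from -24.7 to 4.8 and wild types from 5.6 to 13.9. FVB/N mutants 3 and 4 lay farthest out on component 2, at -24 and -24.7, where the other 2 FVB/N mutants lay at 4.8 and -9.4. BALB/cCrl wild type 1 and mutant 4, which carry consecutive embryo numbers, deviated together from their group means (r = 0.386). Results are given with and without these arrays below. The ratio of 3′ to 5′ Gapdh signal, a sign of RNA quality, was higher in mutants by 0.0388 (log2) in BALB/cCrl (4 against 4, exact permutation p = 0.02857, two-sided, the smallest this design allows) and by 0.0517 in FVB/N (exact permutation p = 0.05714). For Actb the same ratio differed by -0.0713 and 0.0294 (exact permutation p = 0.2 and 0.5143). The part of RNA quality in the results was not tested.

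The shared genes were mostly lower in mutants. Of the 66 shared genes, 57 were lower in mutants and 9 were higher, whereas over all genes 51.0% of the mean effects lay below 0 with a median of -0.002 (log2). The changes were small: absolute log2 fold changes ran from 0.151 to 0.957 with a median of 0.368, and 6 genes changed by at least 1.5-fold. In limma, 0.446% of the genes off chromosome 6 were called on the mean effect (76 of 17039), of which 65 were lower (0.381% of the genes) and 11 higher (0.0646%). On chromosome 6, 22 of 992 genes (2.22%) were called. Same sign and an unadjusted p under 0.05 in each strain, without the call, were met by 242 genes off chromosome 6 (1.42%). A further 47 called probe sets had no annotated position and are not among these genes. The balance of falls and rises moved with single arrays. With all arrays, 13.6% of the genes that met the shared rule were rises. This share was 20.3% without BALB/cCrl mutant 4, 21.6% without BALB/cCrl wild type 4 and 10.6% without FVB/N wild type 3. For called same-sign probe sets off chromosome 6, leaving out BALB/cCrl mutant 4 moved the share most, from 15.8% to 39.4%.

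For 26 of the 66 shared genes, every mutant lay on the same side of every wild type in both strains. Of the 76 called genes this held for 27 (35.5%), against 66 of the 17039 genes off chromosome 6 (0.387%). Because the mean effect used these same arrays, this counts how clean the called genes were and is no separate test. At the edge of the threshold, Rtca (-0.15), Dmrta1 (-0.36) and Zfp52 (-0.28) were called with an adjusted p of 0.0468 in limma. Just outside it lay Cldn23 (-0.30, 0.0502), the pluripotency factor gene Pou5f1 (-0.39, 0.0504) and Dnajc1 (-0.25, 0.0512).

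The strains share no arrays, so the direction of genes chosen in either strain can be read in the other. The p-values are not separate readings, because the fit to all 16 arrays gave each gene the same standard error in each strain. Choosing genes by a small p favours genes with a low spread, which also lowers their p in the other strain. The shares that reached an unadjusted p of 0.05 are therefore descriptions and no separate test. The 74 genes off chromosome 6 with an unadjusted p under 0.001 in BALB/cCrl had the same sign in FVB/N in 63 cases (85.1%), and 29 of them (39.2%) also reached an unadjusted p of 0.05 there. Over all 17039 genes these shares were 57.9% and 6.8%. In the other direction, 132 genes chosen in FVB/N had the same sign in BALB/cCrl in 84 cases (63.6%), and 41 (31.1%) reached an unadjusted p of 0.05, against 6.6% of all genes. Across the 17039 genes the 2 strain effects correlated at r = 0.262, a description over genes that are not independent and that share arrays within each strain. This correlation was 0.092 for genes with a mean level under 5 (log2), 0.312 between 5 and 7, 0.333 between 7 and 9 and 0.132 above 9.

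**Figure D1:**
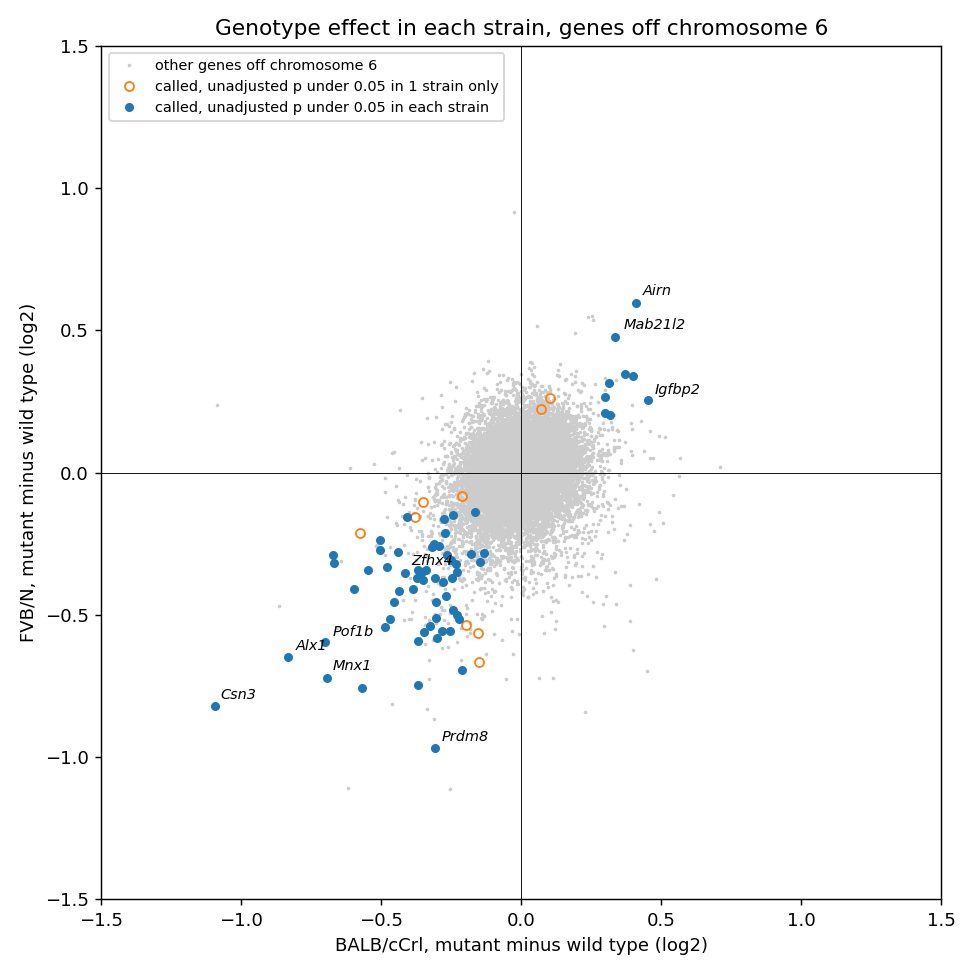
Each point is a gene off chromosome 6, placed by its mutant minus wild type difference (log2) in BALB/cCrl (horizontal) and FVB/N (vertical); filled points are the 66 shared genes, open circles called genes with an unadjusted p under 0.05 in 1 strain only, and 1 gene, Cdk5rap1, lies outside the plotted range. Most filled points lie in the lower left, with Csn3 and Alx1 farthest out, and 9 lie in the upper right.

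The targeted gene itself checked the labels. Cecr2 (chromosome 6, 120666314 to 120771191, GRCm38.p6) read 8.29, 8.64, 8.07 and 8.24 (log2) in BALB/cCrl wild types 1 to 4 and 6.04, 5.92, 5.90 and 5.92 in the mutants. In FVB/N it read 8.14, 8.51, 8.19 and 8.14 in wild types and 6.15, 6.37, 6.15 and 6.29 in mutants. All 8 mutants lay far below all 8 wild types. The mean effect was -2.18 ± 0.076 (log2, SE), or 4.54-fold lower, with an adjusted p of 1.3e-12 in limma, and a second probe set gave -2.67 ± 0.174. Where these probe sets lie relative to the trap insertion was not given in the sources used here. Cecr2 was the 1 called member of 13 measured genes of the ISWI complexes (7.69%, against 0.544% of all genes). This share rests on the trapped gene alone, whose fall was given by the design, so it says nothing about the other members. Of the 13, 8 lay below 0 (51.0% of all genes did) with a median of -0.02. An unadjusted p under 0.05 was met by 4 of the 13, Cecr2 among them (13.7% of all probe sets did). Baz2a read 0.16 ± 0.041, Baz1b 0.08 ± 0.029 and Baz1a -0.13 ± 0.048 on the mean effect (adjusted p = 0.085, 0.21 and 0.23 in limma).

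Csn3, which encodes the milk protein kappa-casein, showed the largest shared change. In BALB/cCrl, Csn3 (chromosome 5, 87925579 to 87932550) read 7.87, 7.79, 7.79 and 7.79 in wild types and 6.90, 6.44, 6.81 and 6.71 in mutants. In FVB/N, Csn3 read 7.75, 7.67, 7.99 and 7.58 in wild types and 6.82, 7.08, 6.84 and 6.96 in mutants. Mutants and wild types did not overlap in either strain, and the gap between them was wider than the spread within any group. Csn3 fell by 0.96 ± 0.070 on the log2 scale (SE), 1.94-fold, with an adjusted p of 1.9e-07 in limma. It fell 2.14-fold in BALB/cCrl and 1.76-fold in FVB/N, and the difference between the strain effects was -0.28 (95% interval -0.57 to 0.02). A second probe set of Csn3 read near the bottom of the scale (mean level 3.67) with a mean effect of -0.07 ± 0.048 (adjusted p = 0.55). Csn3 was the only called member among 10 measured genes of the casein cluster and of mammary milk proteins (10.0%, against 0.544% of all genes). The list had a median mean effect of 0.019, with 3 members below 0 and 6 with a mean level under 5. Odam and Csn2, of the same list, read 0.16 ± 0.082 and 0.11 ± 0.069 (adjusted p = 0.38 and 0.51 in limma).

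Alx1 (chromosome 10, 103007847 to 103029549) encodes a homeobox factor of the head mesenchyme that mice need to close the cranial neural tube. In BALB/cCrl, Alx1 read 7.80, 7.55, 7.51 and 7.56 in wild types and 6.97, 6.79, 6.57 and 6.75 in mutants. In FVB/N, Alx1 read 7.45, 7.79, 7.82 and 7.75 in wild types and 7.18, 7.15, 6.94 and 6.94 in mutants. Again no mutant reached the lowest wild type of its strain. Alx1 fell by 0.74 ± 0.072 on the log2 scale (1.67-fold, adjusted p = 1.6e-05 in limma), 1.78-fold in BALB/cCrl and 1.57-fold in FVB/N. Its second probe set, dimmer at a mean level of 4.53, read -0.39 ± 0.092 (adjusted p = 0.069).

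A related homeobox gene of the same tissue, Prrx1, fell as well. In BALB/cCrl, Prrx1 read 8.56, 8.56, 8.67 and 8.68 in wild types and 8.49, 7.73, 8.22 and 8.20 in mutants. In FVB/N, Prrx1 read 9.14, 9.23, 9.15 and 9.09 in wild types and 8.90, 8.78, 8.47 and 8.64 in mutants. BALB/cCrl mutant 1 came close to its wild types and mutant 2 lay far below them, and no group overlapped. The mean effect was -0.46 ± 0.081 (adjusted p = 0.012 in limma), and 2 further probe sets were called, at -0.43 ± 0.085 and -0.57 ± 0.111. The other 3 Prrx1 probe sets were not called, at -0.37 ± 0.115, -0.23 ± 0.076 and 0.05 ± 0.067 (adjusted p = 0.17, 0.18 and 0.78). Among 19 measured head mesenchyme transcription factors, 2 were called, both lower (10.5%, against 0.544% of all genes). The list lay below 0 for 15 members (51.0% of all genes did) with a median of -0.064. This list, like every gene list used here, was chosen with earlier results of these data known. Such shares are therefore descriptions and no separate test. Foxd1, Foxc1 and Snai2 read -0.30 ± 0.109, -0.20 ± 0.076 and -0.18 ± 0.056 (adjusted p = 0.23, 0.25 and 0.18 in limma). These are whole embryos, so fewer cells of a tissue and less RNA per cell cannot be told apart.

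Genes of the cranial placodes and the otic vesicle were counted next. Of 17 measured, 2 were called, both lower (11.8%, against 0.544% of all genes), and 15 lay below 0 with a median of -0.091 (51.0% of all genes lay below 0). Because the list was chosen with earlier results of these data known, these shares are no separate test. Eya1, a transcriptional coactivator of ear and placode development, read 9.33, 9.36, 9.36 and 9.51 in BALB/cCrl wild types and 9.03, 9.01, 8.98 and 9.12 in mutants. In FVB/N, Eya1 read 9.71, 9.51, 9.67 and 9.47 in wild types and 9.47, 9.18, 9.42 and 8.89 in mutants. The BALB/cCrl groups were well apart, while in FVB/N the highest mutant touched the lowest wild type. Eya1 fell by 0.35 ± 0.068 (adjusted p = 0.023 in limma), and its 2 other probe sets read -0.10 ± 0.081 and -0.17 ± 0.088. The second called gene, the homeobox gene Dlx5 (-0.34 ± 0.051, adjusted p = 0.0041), lies on chromosome 6, where 2.22% of the genes were called. Neurog1, the proneural factor of cranial sensory neurons, read -0.38 ± 0.097 (adjusted p = 0.086).

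A longer list held genes with a known part in cranial neural tube closure. Of 45 measured, 2 were called, Cecr2 and Alx1 (4.44%, against 0.544% of all genes). Cecr2 is the trapped gene, whose fall was given by the design, and the list was chosen with earlier results known. The share is therefore no separate test. Of the 45, 32 lay below 0 (51.0% of all genes did). The list had a median of -0.027, and 8 members had an unadjusted p under 0.05 (13.7% of all probe sets did). Grhl3 read -0.21 ± 0.067, Cited2 -0.15 ± 0.040 and Vcl -0.11 ± 0.033 (adjusted p = 0.19, 0.097 and 0.16 in limma).

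**Figure D2:**
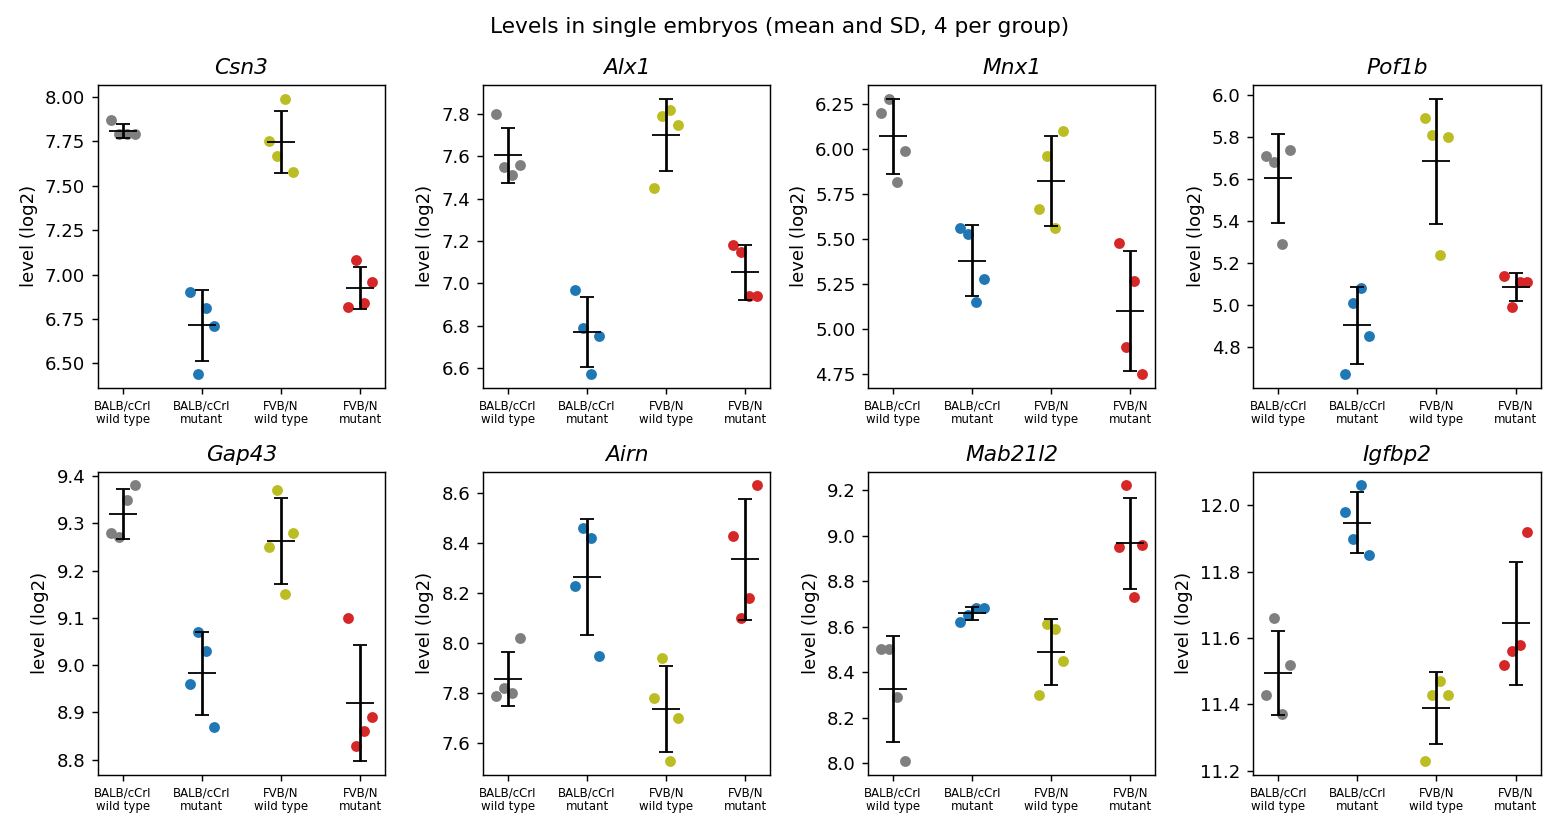
Levels (log2) of 8 shared genes in each embryo, with the mean and SD of each group of 4. Csn3, Alx1, Mnx1, Pof1b and Gap43 are lower in mutants of both strains, and Airn, Mab21l2 and Igfbp2 are higher; each panel has its own axis, which does not start at 0.

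Mnx1 encodes a homeobox factor of motor neurons, the notochord and the pancreas. In BALB/cCrl, Mnx1 (chromosome 5, 29473823 to 29478470) read 6.20, 6.28, 5.82 and 5.99 in wild types and 5.56, 5.53, 5.15 and 5.28 in mutants. In FVB/N, Mnx1 read 5.67, 5.96, 5.56 and 6.10 in wild types and 5.48, 4.90, 5.27 and 4.75 in mutants. The groups did not overlap, although FVB/N mutant 1 came close to the lowest wild type. Mnx1 fell by 0.71 ± 0.110 (1.64-fold, adjusted p = 0.0043 in limma), nearly alike in both strains (1.62-fold and 1.65-fold).

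Pof1b, an actin-binding protein of epithelial junctions, lies on the X chromosome (112638427 to 112698711). In BALB/cCrl, Pof1b read 5.71, 5.68, 5.29 and 5.74 in wild types and 4.67, 5.01, 5.08 and 4.85 in mutants. In FVB/N, Pof1b read 5.89, 5.81, 5.24 and 5.80 in wild types and 5.14, 4.99, 5.11 and 5.11 in mutants. In each strain wild type 3 lay below the other 3 wild types and just above the mutants. Pof1b fell by 0.65 ± 0.093 (1.57-fold, adjusted p = 0.0024 in limma).

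Gm715, an X-linked gene to which no role is given here, fell by 0.66 ± 0.111 (adjusted p = 0.0081 in limma). It ranged from 6.19 to 6.67 in BALB/cCrl wild types and from 5.66 to 5.84 in mutants. In FVB/N it ranged from 6.25 to 6.75 and from 5.35 to 6.27, so that the groups overlapped there. Prdm8, a PR domain factor of the developing nervous system, read 5.75, 6.04, 5.88 and 5.93 in BALB/cCrl wild types and 5.60, 5.93, 5.55 and 5.27 in mutants. In FVB/N, Prdm8 read 5.97, 6.26, 6.47 and 6.57 in wild types and 5.59, 5.20, 5.41 and 5.20 in mutants. The FVB/N groups were far apart and the BALB/cCrl groups overlapped. Its mean effect was -0.64 ± 0.097 (adjusted p = 0.0037 in limma), made of -0.31 in BALB/cCrl and -0.97 in FVB/N.

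The other genes among the 12 largest falls had various roles. Aldh1a7, an aldehyde dehydrogenase, ranged from 5.45 to 5.97 in BALB/cCrl wild types and from 5.03 to 5.57 in mutants, and from 5.87 to 6.08 and 5.03 to 5.44 in FVB/N. It fell 1.29-fold and 1.68-fold (mean effect -0.56 ± 0.089, adjusted p = 0.0052 in limma). The sphingomyelin synthase gene Sgms2 fell by 0.52 ± 0.10 (adjusted p = 0.024), and the annexin gene Anxa1, whose product binds membrane phospholipids, fell by 0.50 ± 0.087 (adjusted p = 0.010). For both genes the FVB/N groups were apart and a single BALB/cCrl mutant overlapped the wild types. A second, dimmer probe set read 0.05 ± 0.066 for Sgms2 and 0.04 ± 0.073 for Anxa1, neither of them called. Hnmt, which methylates histamine, read -0.49 ± 0.108, with an FVB/N unadjusted p of 0.05 that is just under the limit, and was at a low level throughout (4.07 to 5.22 over all 16 arrays). The neuronal RNA-binding protein gene Elavl4 fell by 0.49 ± 0.103 and was called with all 3 of its probe sets (the others at -0.37 ± 0.079 and -0.47 ± 0.103). The Elavl4 call was kept in 6 of 16 fits without 1 array and was lost without the intensity trend, without FVB/N mutants 3 and 4 and in the gcRMA values. Cd36, a fatty acid receptor of endothelium and other cells, fell by 0.48 ± 0.094, 1.60-fold in BALB/cCrl and 1.22-fold in FVB/N, and its groups overlapped in FVB/N.

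**Figure D3:**
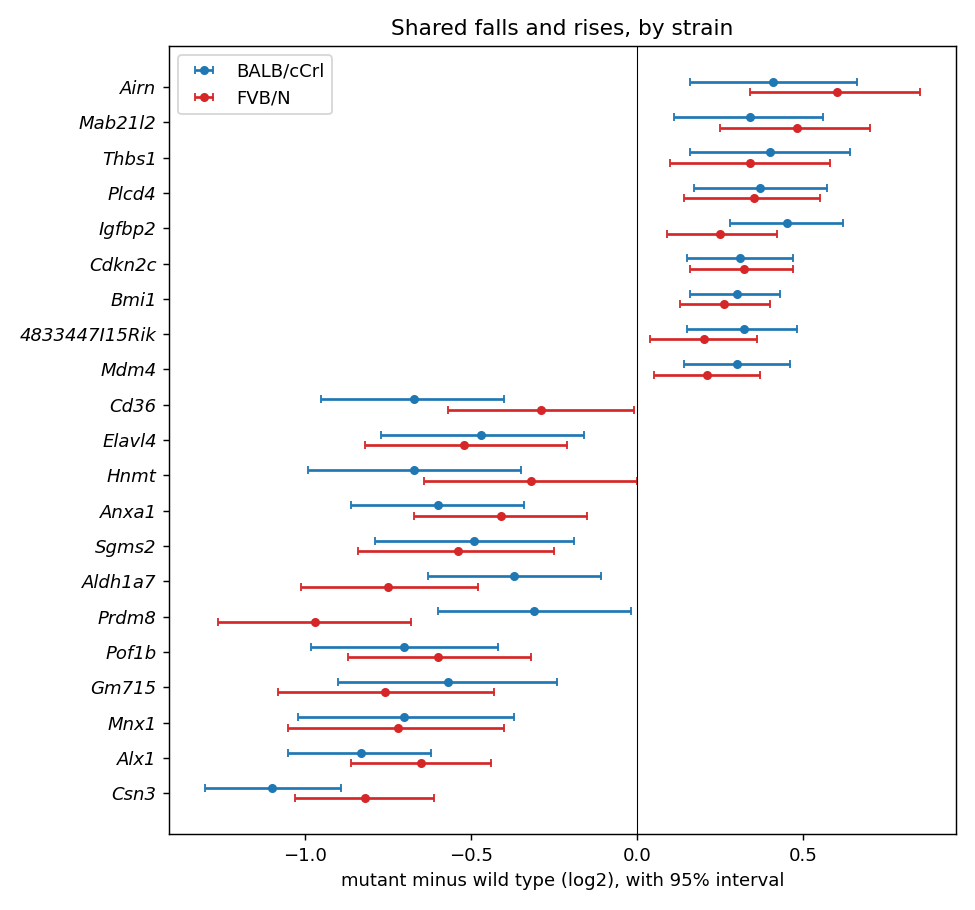
Mutant minus wild type difference (log2) of the 12 largest shared falls and all 9 shared rises, separately for BALB/cCrl and FVB/N, with 95% intervals from the limma fit. Every interval lies on 1 side of 0, because only genes with an unadjusted p under 0.05 in each strain were drawn. Those of Hnmt, Cd36 and Prdm8 have 1 end close to 0.

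The sequences before the transcription starts of 4 of these falls are shown so that the motif counts can be read against the DNA. They are the 250 bases upstream of the outermost RefSeq start on GRCm38.p6, 5′ to 3′ on the strand of the gene, all of the minus strand. They stand for Mnx1 (chr5:29478471-29478720), Aldh1a7 (chr19:20727557-20727806), Sgms2 (chr3:131491444-131491693) and Anxa1 (chr19:20390672-20390921). Capitals mark matches on either strand. The motifs were the homeobox core, spelled TAATTA, the TATA box, spelled TATAAA, the inverted box known by its letters CCAAT, the E-box, spelled CACGTG, and the GC box, spelled GGGCGG. A palindromic paired homeobox motif was searched as well.
Mnx1: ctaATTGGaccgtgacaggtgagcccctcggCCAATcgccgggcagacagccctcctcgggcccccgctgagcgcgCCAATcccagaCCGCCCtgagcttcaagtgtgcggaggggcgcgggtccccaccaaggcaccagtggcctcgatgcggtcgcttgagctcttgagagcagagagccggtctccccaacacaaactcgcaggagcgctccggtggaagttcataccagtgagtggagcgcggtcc
Aldh1a7: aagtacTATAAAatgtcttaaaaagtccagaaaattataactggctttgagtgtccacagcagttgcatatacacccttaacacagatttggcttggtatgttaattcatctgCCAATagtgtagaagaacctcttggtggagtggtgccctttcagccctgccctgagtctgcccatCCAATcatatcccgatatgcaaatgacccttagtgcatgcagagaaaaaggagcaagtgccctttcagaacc
Sgms2: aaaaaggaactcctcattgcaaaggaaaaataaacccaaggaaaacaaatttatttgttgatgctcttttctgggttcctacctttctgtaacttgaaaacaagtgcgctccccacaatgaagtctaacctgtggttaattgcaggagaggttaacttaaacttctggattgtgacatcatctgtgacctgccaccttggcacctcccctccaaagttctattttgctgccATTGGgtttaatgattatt
Anxa1: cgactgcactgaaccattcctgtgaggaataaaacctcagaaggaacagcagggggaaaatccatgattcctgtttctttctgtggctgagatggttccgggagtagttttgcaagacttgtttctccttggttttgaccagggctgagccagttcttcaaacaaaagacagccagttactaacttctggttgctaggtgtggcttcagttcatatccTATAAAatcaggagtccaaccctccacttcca
The Mnx1 window held 3 CCAAT and 1 GGGCGG, the Aldh1a7 window 1 TATAAA and 2 CCAAT, the Sgms2 window 1 CCAAT and the Anxa1 window 1 TATAAA. Of the 66 shared genes, 49 had RefSeq promoter windows of 300 bases, 72 in all. GGGCGG was in 56.9% of these and in 35.7% of all 32851 windows, CCAAT in 44.4% and 37.4%, and TATAAA in 12.5% and 13.6%. TAATTA was in 8.33% and 5.29%, CACGTG in 8.33% and 7.15%, and the paired homeobox palindrome in 0.0% and 0.487%. Matches of different motifs may overlap and were counted separately. These shares describe letters in windows and were not tested.

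The following transcription factor genes among the shared falls were picked after their values were seen, and such genes were not counted over the array. Zfhx4 (chromosome 3), a zinc finger homeobox gene, read 8.85, 8.88, 8.97 and 8.91 in BALB/cCrl wild types and 8.65, 8.38, 8.49 and 8.42 in mutants. In FVB/N, Zfhx4 read 9.07, 9.17, 9.12 and 9.19 in wild types and 8.94, 8.81, 8.72 and 8.67 in mutants. The wild types were tightly grouped and no mutant reached them. Zfhx4 fell by 0.38 ± 0.050 (1.31-fold, adjusted p = 7.0e-04 in limma), and its dimmer second probe set read -0.24 ± 0.077.

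The teashirt zinc finger genes Tshz1 and Tshz3, which pattern trunk and craniofacial tissues, fell by 0.48 ± 0.067 (adjusted p = 0.0016 in limma) and 0.40 ± 0.066 (adjusted p = 0.0072). For Tshz3 the BALB/cCrl groups lay at 7.33 ± 0.10 and 6.94 ± 0.09 (SD, n = 4) and the FVB/N groups at 7.42 ± 0.14 and 7.01 ± 0.18. For Tshz1 they lay at 10.17 ± 0.11 and 9.80 ± 0.08, and at 10.38 ± 0.17 and 9.79 ± 0.21. Neither gene overlapped between genotypes in either strain, and a second probe set of Tshz1 read -0.16 ± 0.078 and was not called. Nab1, a corepressor of the early growth response factors, fell by 0.40 ± 0.063 and Arid5b, a DNA-binding cofactor of histone demethylation, by 0.35 ± 0.055 (adjusted p = 0.0045 for each). Other probe sets of Arid5b read -0.33 ± 0.073, -0.04 ± 0.072, 0.07 ± 0.077 and 0.10 ± 0.052. Those of Nab1 read -0.24 ± 0.060 and -0.00 ± 0.061, and none of these was called. In Nab1, BALB/cCrl mutant 2 (9.30) stood among the wild types (9.02 to 9.36), while all FVB/N mutants (8.99 to 9.12) lay below all FVB/N wild types (9.54 to 9.71). Dmrta1 and Dmrta2, both DM domain factors, fell by 0.36 ± 0.080 and 0.37 ± 0.074 (adjusted p = 0.047 and 0.030). Further falls of factor genes were Dach2 (0.43 ± 0.086), the Notch target Hey2 (0.39 ± 0.072), Tox3 (0.28 ± 0.061) and the motor neuron and heart progenitor gene Isl1 (0.23 ± 0.051). A second probe set read -0.10 ± 0.059 for Isl1 and -0.09 ± 0.076 for Dach2, neither of them called.

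Foxa1, a forkhead factor of endoderm and the floor plate, fell in both strains. In BALB/cCrl, Foxa1 read 9.36, 9.30, 9.04 and 9.28 in wild types and 8.90, 9.09, 8.78 and 8.83 in mutants. In FVB/N, Foxa1 read 9.04, 9.24, 9.32 and 9.24 in wild types and 8.94, 8.55, 8.67 and 8.44 in mutants. Mutant 2 of BALB/cCrl lay just above the lowest wild type, and the FVB/N groups were apart. Foxa1 fell by 0.46 ± 0.070 (1.37-fold, adjusted p = 0.0041 in limma). Its relative Foxa2 was called as well (-0.36 ± 0.069, adjusted p = 0.022), but its BALB/cCrl effect of -0.15 had an unadjusted p of 0.13 and the FVB/N effect was -0.56. The difference between the strain effects of Foxa2 was 0.41 (95% interval 0.12 to 0.69, unadjusted p = 0.0079 in limma). Foxa1 and Foxa2 were the 2 called members among 19 measured genes of the hedgehog pathway and the ventral neural tube, or 10.5% against 0.544% of all genes. In this list 16 lay below 0 (51.0% of all genes did) with a median of -0.124. Because the list was chosen with earlier results of these data known, these shares are no separate test. The ventral progenitor genes Nkx6-1 and Nkx2-2 read -0.33 ± 0.142 and -0.26 ± 0.086, and the hedgehog receptor and target Ptch1 -0.14 ± 0.061 (adjusted p = 0.32, 0.19 and 0.32).

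The next genes, with known roles in axons and neurons, were picked after their values were seen and belong to no list that was counted. Gap43, a protein of growth cones, read 9.28, 9.27, 9.35 and 9.38 in BALB/cCrl wild types and 8.96, 9.07, 9.03 and 8.87 in mutants. In FVB/N, Gap43 read 9.25, 9.37, 9.15 and 9.28 in wild types and 9.10, 8.83, 8.86 and 8.89 in mutants. No group overlapped, with FVB/N mutant 1 nearest to its wild types. Gap43 fell by 0.34 ± 0.048, 1.27-fold in each strain (adjusted p = 0.0021 in limma).

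The neurofilament gene Nefh fell by 0.41 ± 0.071, the repulsive guidance ligand gene Slit2 by 0.29 ± 0.051, the semaphorin gene Sema3e by 0.41 ± 0.084 and the ephrin receptor gene Epha7 by 0.28 ± 0.052. Slit2 lay at 8.97 ± 0.05 and 8.73 ± 0.06 in BALB/cCrl wild types and mutants and at 8.78 ± 0.02 and 8.43 ± 0.18 in FVB/N (SD, n = 4). Epha7 has 3 other probe sets, at -0.15 ± 0.058, -0.06 ± 0.047 and -0.08 ± 0.080, none of them called. The neuronal membrane genes Gpm6a (0.36 ± 0.074), Plppr1 (0.33 ± 0.057) and Adgrb3 (0.43 ± 0.089) and the protocadherin gene Pcdh17 (0.45 ± 0.068) fell too. Ndn, an imprinted gene expressed in neurons and muscle, fell by 0.20 ± 0.031 (adjusted p = 0.0044 in limma) with no overlap. Of its 8 probe sets, 4 were called, at -0.16 to -0.22, and a further bright one read -0.08 ± 0.035. The names of 3 of the 4 end in x_at, which marks probes that can match other genes.

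In the list of neural progenitor and early neuron genes, Elavl4 was the 1 called member of 21 measured (4.76%, against 0.544% of all genes). Of the 21, 16 lay below 0 (51.0% of all genes did) and the median was -0.099. Sox2, a factor of neural progenitors, read -0.16 ± 0.056 and the forebrain and midbrain gene Otx2 0.22 ± 0.068 (adjusted p = 0.20 and 0.17 in limma). None of 19 measured neural crest genes was called, although 7 had an unadjusted p under 0.05 (13.7% of all probe sets did). Foxd3 and Sox10, both early crest factors, read 0.19 ± 0.059 and 0.18 ± 0.051 (adjusted p = 0.17 and 0.13). The crest list had a median of -0.063, close to that of head mesenchyme, with 13 of its 19 members below 0. None of 20 paraxial mesoderm and early muscle genes was called. With 0.544% of all genes called, lists of this size can easily hold none. Of the 20, 14 lay below 0 (51.0% of all genes did), with a median of -0.061. An unadjusted p under 0.05 was met by 2 (13.7% of all probe sets did). Meox2 read -0.33 ± 0.151 and Tcf15 -0.22 ± 0.094 (adjusted p = 0.35 and 0.31 in limma).

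Epithelial and junction genes fell in a few cases. Of these, Dsp and Cldn8 were picked after their values were seen and belong to no list that was counted. Perp, a desmosome protein and p53 target, read 8.06, 8.10, 8.14 and 8.12 in BALB/cCrl wild types and 7.83, 7.15, 7.47 and 7.68 in mutants. In FVB/N, Perp read 8.27, 8.23, 8.05 and 8.17 in wild types and 8.04, 8.03, 7.87 and 7.94 in mutants. The groups were apart in both strains, narrowly in FVB/N. Perp was called at -0.39 ± 0.074 (adjusted p = 0.018 in limma), with an unadjusted p of 0.056 in FVB/N. The desmoplakin gene Dsp fell by 0.29 ± 0.056 and a second probe set of it by 0.35 ± 0.072 (adjusted p = 0.023 and 0.034). The claudin gene Cldn8 fell by 0.44 ± 0.074 (adjusted p = 0.0081). Perp was the 1 called member of 20 measured surface ectoderm genes (5.0%, against 0.544% of all genes). Of the 20, 16 lay below 0 (51.0% of all genes did) with a median of -0.064. Esrp1, Trp63 and Grhl3 read -0.23 ± 0.056, -0.24 ± 0.088 and -0.21 ± 0.067 (adjusted p = 0.069, 0.22 and 0.19).

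Hand2, a basic helix-loop-helix factor of heart, limb and branchial arches, read 10.00, 10.10, 10.12 and 10.11 in BALB/cCrl wild types and 9.67, 9.67, 9.56 and 9.94 in mutants. In FVB/N, Hand2 read 10.24, 10.36, 10.04 and 10.09 in wild types and 9.81, 9.98, 9.74 and 9.72 in mutants. No group overlapped, with BALB/cCrl mutant 4 and FVB/N mutant 2 close to the lowest wild types. Hand2 fell by 0.37 ± 0.058, 1.29-fold in each strain (adjusted p = 0.0044 in limma). Its 2 other probe sets read -0.11 ± 0.104 and -0.19 ± 0.072. Hand2 was the 1 called member of 22 cardiac muscle genes (4.55%, against 0.544% of all genes). The median of that list was 0.053, with 6 members below 0 (51.0% of all genes lay there). The myosin light chain genes Myl4 and Myl3 read 0.13 ± 0.064 and 0.13 ± 0.073, and Smyd1 -0.22 ± 0.082 (adjusted p = 0.38, 0.43 and 0.23).

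Sox17, a factor of endoderm and arterial endothelium, ranged from 8.15 to 8.66 in BALB/cCrl wild types and from 7.81 to 8.11 in mutants. In FVB/N, Sox17 ranged from 8.34 to 8.50 and from 7.84 to 8.21. Both strains were free of overlap. Sox17 fell by 0.36 ± 0.071 (adjusted p = 0.028 in limma), and its second probe set read -0.28 ± 0.082. Sox17 was the 1 called member of 22 endothelial genes (4.55%, against 0.544% of all genes). Of the 22, 18 lay below 0 (51.0% of all genes did) with a median of -0.074. Its relatives Sox7 and Sox18, of the same list, read -0.32 ± 0.086 and -0.20 ± 0.060 (adjusted p = 0.11 and 0.15 in limma).

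Sox17 was also the 1 called member of 20 visceral endoderm and yolk sac genes (5.0%, against 0.544% of all genes). That list had the lowest median of all, -0.287, with 19 members below 0 (51.0% of all genes lay there). An unadjusted p under 0.05 was met by 1 member (13.7% of all probe sets did). Its members varied widely between embryos of a group: the fibrinogen genes Fga and Fgb read -0.64 ± 0.400 and -0.42 ± 0.276, and Apoa4 -0.58 ± 0.394 (adjusted p = 0.50, 0.53 and 0.53). The summed level of the list ranged from 14.45 to 15.26 (log2) in BALB/cCrl wild types and from 13.97 to 15.67 in mutants. In FVB/N it ranged from 14.58 to 15.41 and from 13.2 to 15.31 (exact permutation p = 0.7714 and 0.6286, 4 against 4). These embryos had been freed of the yolk sac, and the part of remaining endoderm in the shared falls was not tested.

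Bmp2, a signalling ligand also made by the decidua, fell by 0.34 ± 0.074 (adjusted p = 0.045 in limma) from means of 8.41 ± 0.16 and 8.59 ± 0.20 (SD, n = 4) in BALB/cCrl and FVB/N wild types to 8.10 ± 0.16 and 8.22 ± 0.13 in mutants. The Bmp2 call was kept in 4 of 16 fits without 1 array and was lost without the intensity trend, after quantile normalisation, without FVB/N mutants 3 and 4 and in the gcRMA values. Bmp2 was the 1 called member of 19 measured trophoblast and decidua genes (5.26%, against 0.544% of all genes). Of the 19, 8 had a mean level under 5, and the median was 0.029. The trophoblast gene Plac1 read -0.60 ± 0.217 (adjusted p = 0.22), and the summed level of the list ranged from 11.49 to 11.88 and 11.29 to 11.90 in BALB/cCrl wild types and mutants and from 11.49 to 11.95 and 11.28 to 11.82 in FVB/N (exact permutation p = 0.3429 and 0.2286, 4 against 4). None of 13 primitive erythroid genes was called (median -0.047, 2 at an unadjusted p under 0.05), with summed levels of 15.97 to 16.28 and 16.11 to 16.28 in BALB/cCrl and 15.64 to 16.21 and 15.58 to 16.02 in FVB/N. None of 16 mature blood and immune genes was called either (median 0.069, 6 with a mean level under 5). Of the 16, 0 had an unadjusted p under 0.05, against 13.7% of all probe sets. Their summed levels were 10.16 to 10.39 and 10.14 to 10.40 in BALB/cCrl and 10.18 to 10.27 and 10.14 to 10.35 in FVB/N.

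The 9 shared rises were led by Airn, an imprinted long non-coding RNA that overlaps Igf2r (chromosome 17, 12741311 to 12859884). In BALB/cCrl, Airn read 7.79, 7.82, 7.80 and 8.02 in wild types and 8.23, 8.46, 8.42 and 7.95 in mutants. In FVB/N, Airn read 7.78, 7.94, 7.53 and 7.70 in wild types and 8.43, 8.10, 8.18 and 8.63 in mutants. Mutant 4 of BALB/cCrl lay below wild type 4, and the FVB/N groups were apart. Airn rose by 0.50 ± 0.086 (1.42-fold, adjusted p = 0.0090 in limma). Its 4 other probe sets read 0.40 ± 0.089, 0.19 ± 0.073, 0.11 ± 0.067 and 0.02 ± 0.074, none of them called.

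Mab21l2, needed for the eye and the ventral body wall, was higher in every mutant. In BALB/cCrl, Mab21l2 read 8.50, 8.50, 8.29 and 8.01 in wild types and 8.62, 8.65, 8.68 and 8.68 in mutants. In FVB/N, Mab21l2 read 8.30, 8.61, 8.59 and 8.45 in wild types and 8.95, 9.22, 8.73 and 8.96 in mutants. The rise was 0.41 ± 0.075 (1.32-fold, adjusted p = 0.017 in limma). Igfbp2, an insulin-like growth factor binding protein, read 11.43, 11.66, 11.37 and 11.52 in BALB/cCrl wild types and 11.98, 11.90, 12.06 and 11.85 in mutants. In FVB/N, Igfbp2 read 11.23, 11.43, 11.47 and 11.43 in wild types and 11.52, 11.56, 11.58 and 11.92 in mutants. Both strains were free of overlap, and FVB/N mutant 4 stood above the other mutants of its group. Igfbp2 rose by 0.35 ± 0.057 (1.28-fold, adjusted p = 0.0057).

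Bmi1, a Polycomb subunit that represses the Ink4a/Arf locus, rose by 0.28 ± 0.046 and was called with both of its probe sets (the second at 0.22 ± 0.037, adjusted p = 0.0061 and 0.010 in limma). It read 10.64, 10.77, 10.90 and 10.82 in BALB/cCrl wild types and 11.12, 10.86, 11.18 and 11.17 in mutants. In FVB/N, Bmi1 read 11.03, 10.99, 11.07 and 11.04 in wild types and 11.37, 11.31, 11.21 and 11.31 in mutants. Only BALB/cCrl mutant 2 fell within the range of the wild types. The cell cycle inhibitor gene Cdkn2c rose by 0.31 ± 0.054 (adjusted p = 0.0090), 1.24-fold in each strain and without overlap. Mdm4, an inhibitor of p53, rose by 0.25 ± 0.053 (adjusted p = 0.038), with 3 other probe sets at -0.06 to 0.09, none called. Thbs1, the matrix protein thrombospondin, rose by 0.37 ± 0.080 and a second probe set read 0.29 ± 0.071 (adjusted p = 0.045 and 0.072). Plcd4, a phospholipase C gene, rose by 0.36 ± 0.068 (adjusted p = 0.020), and 4833447I15Rik, to which no role is given here, by 0.26 ± 0.055 (adjusted p = 0.039).

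Stress and cell cycle lists gave few calls. Of 20 p53 target and apoptosis genes, Perp was the 1 called by its representing probe set, 19 lay below 0 and the median was -0.079. Eda2r, Zmat3 and Sesn1 read -0.29 ± 0.098, -0.18 ± 0.074 and -0.16 ± 0.044 (adjusted p = 0.20, 0.30 and 0.13 in limma). None of 23 immediate early and heat shock genes was called, although 7 had an unadjusted p under 0.05 and 19 lay below 0 (median -0.078). Klf6, Atf3 and Dusp1 read -0.16 ± 0.053, -0.15 ± 0.052 and -0.15 ± 0.058 (adjusted p = 0.19, 0.20 and 0.27). None of 22 hypoxia and glycolysis genes was called (2 at an unadjusted p under 0.05, median 0.028). Of 24 mitotic chromosome and condensin genes, Ncapd2 (0.94 ± 0.051, adjusted p = 1.5e-09) and Cdca3 (0.55 ± 0.036, adjusted p = 3.6e-08) were called, both on chromosome 6, and the median was 0.016. None of 7 X and Y transcripts was called (1 at an unadjusted p under 0.05). For comparison, 13.7% of all probe sets had an unadjusted p under 0.05, 0.544% of all genes were called and 51.0% lay below 0.

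**Figure D4:**
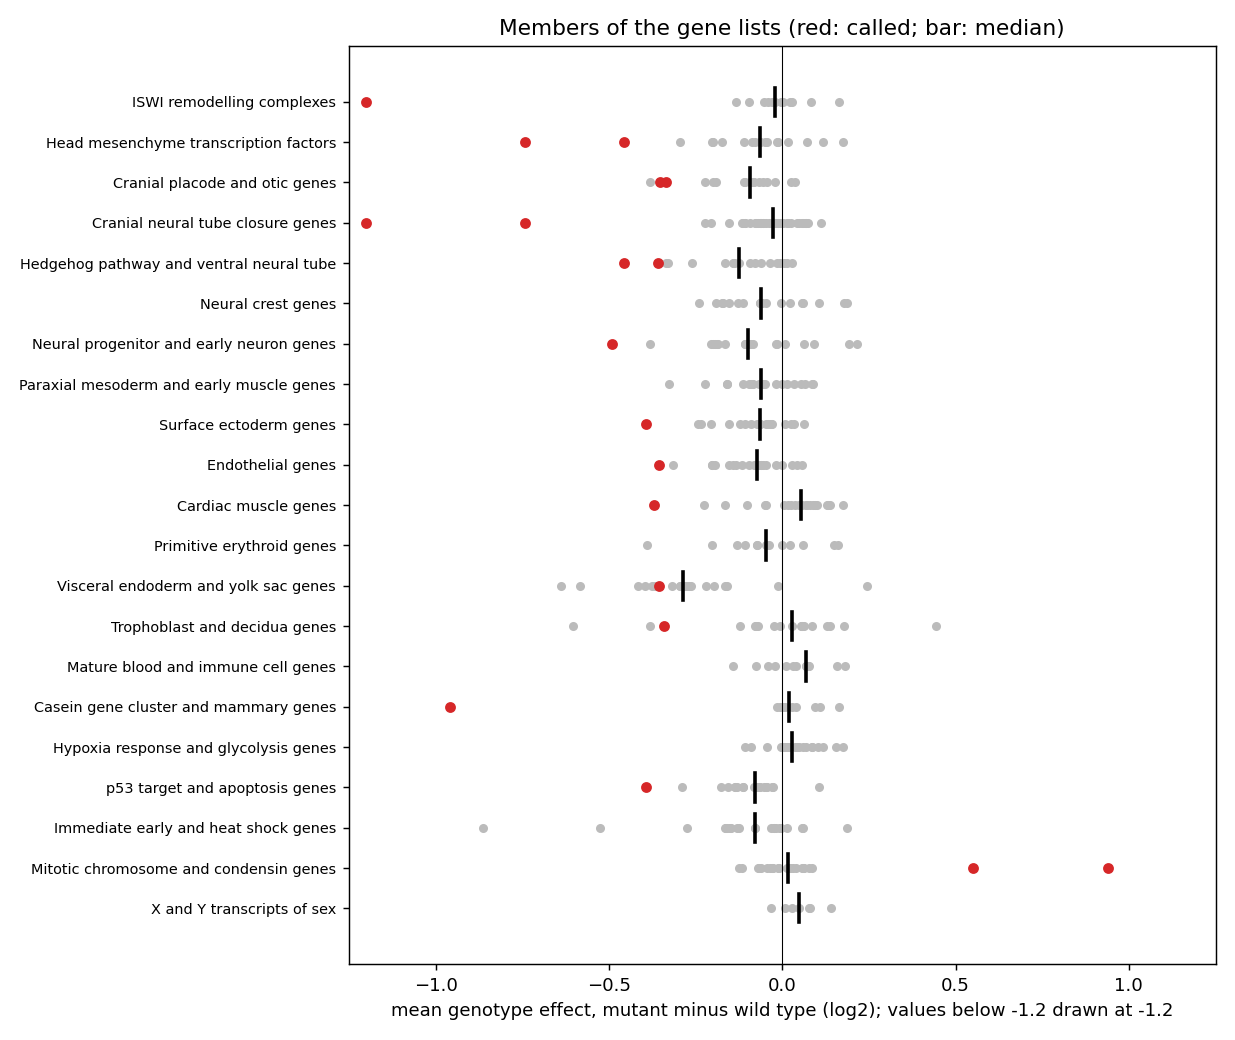
Mean effect (log2) of every measured member of the 21 gene lists, with called members in red and the list median as a bar; Cecr2 lies beyond the plotted range and is drawn at its edge. The visceral endoderm list has the lowest median, -0.287, and the called members of the mitotic list, at 0.94 and 0.55, lie on chromosome 6.

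Within single strains the shared genes were called unequally. In the test of each strain by itself, 3 of the 66 were called in BALB/cCrl (0.02% of all probe sets were) and 28 in FVB/N (0.595%). The 3, Csn3, Alx1 and Zfhx4, were among the 28. This does not show that the effects differed, and 35 of the 66 effects were the larger ones in FVB/N. The shared genes had been chosen for the same sign and an unadjusted p under 0.05 in each strain, which works against a strain difference. The test of the difference itself called 0 of the 66 in limma (0.0755% of all probe sets), which does not show that the effects were alike. At an unadjusted p under 0.05 it named 5: Prdm8 (0.66, 0.0029), Pcdh17 (0.48, 0.0020), Nab1 (0.30, 0.027) and Aldh1a7 (0.38, 0.047) were lower by more in FVB/N, and Epha7 (-0.25, 0.025) by more in BALB/cCrl. For Pcdh17 the mutants read 4.80 ± 0.14 against 5.01 ± 0.20 in BALB/cCrl and 5.06 ± 0.08 against 5.75 ± 0.06 in FVB/N (SD, n = 4).

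Another 10 genes were called on the mean effect without reaching an unadjusted p of 0.05 in both strains, 6 of them through FVB/N and 4 through BALB/cCrl. The extreme case was Cdk5rap1, a mitochondrial tRNA-modifying enzyme on chromosome 2 (154222011 to 154373038). In BALB/cCrl, Cdk5rap1 read 8.01, 8.22, 7.90 and 8.12 in wild types and 7.95, 8.12, 7.91 and 8.08 in mutants. In FVB/N, Cdk5rap1 read 7.89, 7.79, 7.83 and 7.73 in wild types and 4.47, 4.47, 4.06 and 4.56 in mutants. The mean effect of -1.73 was thus an FVB/N effect of -3.42 averaged with a BALB/cCrl effect of -0.04, and the difference of 3.38 ± 0.141 (SE) was called (adjusted p = 3.9e-11 in limma). The FVB/N mutants came from a separate colony, and mutation and colony cannot be told apart.

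The other 9 were less uneven. Foxa2 and Perp are given above. Filip1l (-0.20 and -0.54 in BALB/cCrl and FVB/N) and Ccdc59 (-0.15 and -0.67) were lower mainly in FVB/N, and Lix1 (-0.35 and -0.10), Minar2 (-0.38 and -0.16) and Rtca (-0.21 and -0.08) mainly in BALB/cCrl. Thumpd1 (0.10 and 0.26) and Ivns1abp (0.07 and 0.22) were higher in both.

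Other probe sets gave a check on single probe sets. The 66 shared genes had 80 further probe sets in 42 genes. Of these 80, 66 had the same sign on the mean effect, 10 were also called (0.455% of all probe sets were) and 0 were called in the opposite direction. They read the same RNA on the same arrays, so this describes how far probe sets agree and is no separate test. A mean over all probe sets of a gene left 43 of the 66 called.

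How many genes were called depended on single arrays. Leaving out 1 array at a time left 36 to 66 of the 66 shared genes called, and 32 were called in all 16 such fits. By contrast, 21 were called in fewer than 8 of the 16, which were Hinfp, Zfp52, Isl1, Hnmt, Tmem158, Thbs1, Tox3, Tmcc3, Dmrta1, Bmp2, Rpp25, 4833447I15Rik, Parl, Elavl4, Nmnat1, Sema3e, Mdm4, Frzb, Aldh1a3, AW551984 and Gpm6a. Without FVB/N mutants 3 and 4, the arrays that stood apart, 25 were still called. Without BALB/cCrl wild type 1 and mutant 4, 57 were, and 9 were in the separate gcRMA values of the authors. Csn3, Alx1, Zfhx4, Gap43, Nab1 and Airn stayed called in every alternative that was run, and no shared gene changed its direction in any of them. Among the others, Mnx1, Pof1b, Prdm8, Foxa1, Tshz1, Mab21l2 and Igfbp2 lost the call in the gcRMA values alone. Hand2 and Arid5b lost it in the mean over all probe sets of a gene alone.

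**Figure D5:**
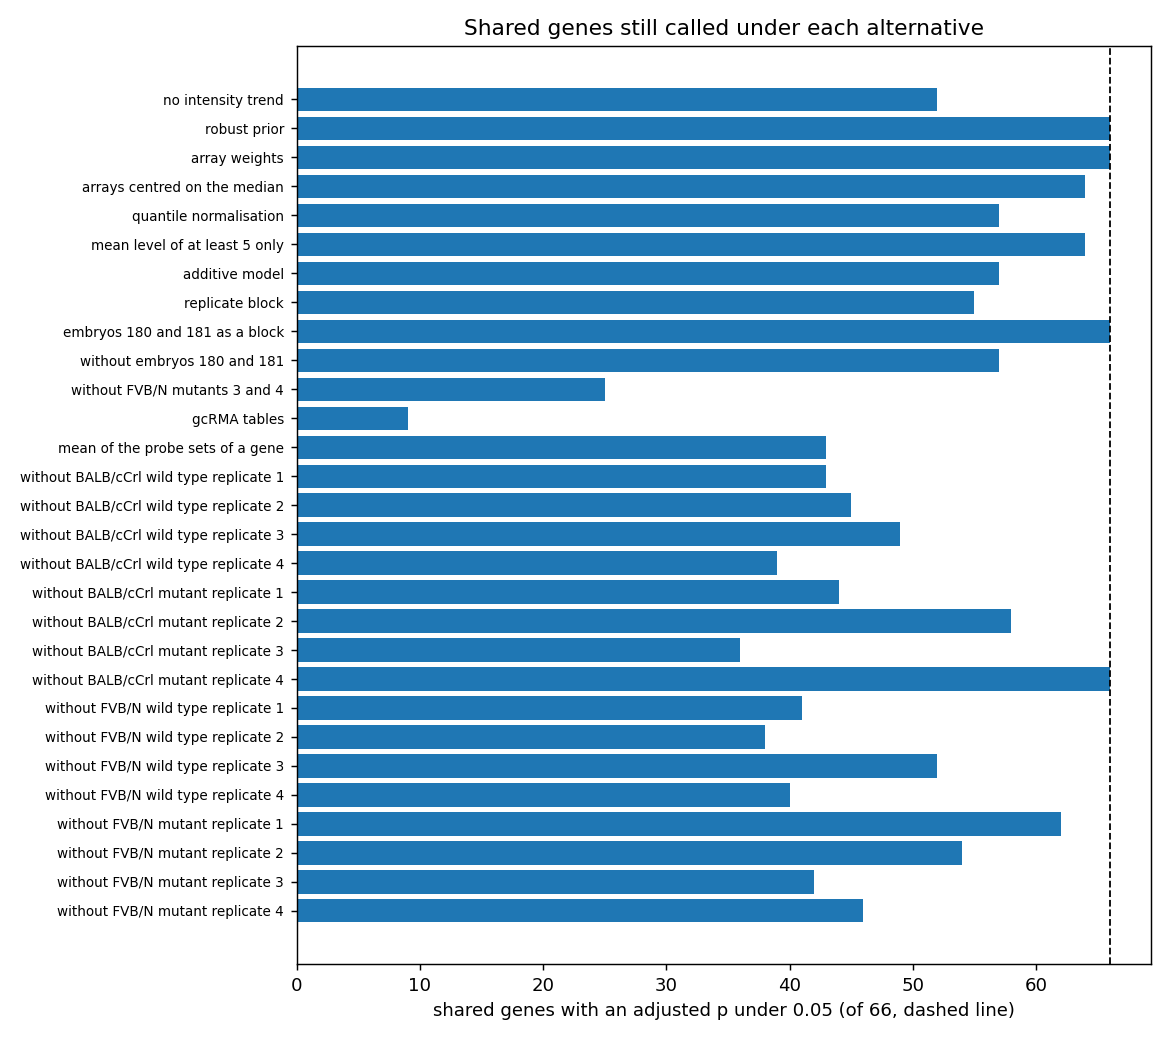
Number of the 66 shared genes (dashed line) that kept an adjusted p under 0.05 on the mean effect under each alternative; the pair given by embryo numbers is BALB/cCrl wild type 1 and mutant 4. The lowest bars are the gcRMA tables (9) and the fit without FVB/N mutants 3 and 4 (25), and leaving out single arrays left 36 to 66.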

How the data were processed

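RNA of 16 single embryos was hybridised to 1 Affymetrix array each. The deposited values are log2 expression levels of 45037 probe sets, which the authors normalised over all 16 arrays. RMA and GCRMA are named in the submitters' processing notes, but neither their versions nor which table each made. The gcRMA tables that the authors deposited, normalised within each strain, served as an alternative and are log2 as well. Nothing says that embryos of a group came from separate litters, so p-values measure the spread between these embryos, and their number limits the precision.

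Means of the 4 groups were fitted to all 16 arrays with limma 3.58.1 (R 4.3.3) with an intensity trend in the prior (12 residual degrees of freedom, median prior 7.23), and p-values were adjusted by Benjamini-Hochberg over all probe sets. The mean effect averages both strain effects, the difference between strains is BALB/cCrl minus FVB/N, and ± is the standard error unless SD is named. The fit was tested on simulated data. Summaries and figures used Python 3.11.15, pandas 2.3.3, numpy 2.4.6 and matplotlib 3.10.9.

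By the platform annotation, 34945 probe sets had 1 gene symbol, 932 several and 9160 none, and those without 1 symbol were left unnamed. Each gene was represented by its brightest probe set, by the average level of all 16 embryos. Positions are those of RefSeq on GRCm38.p6, and 18032 genes had one. The named genes are Cecr2, the 12 largest shared falls and rises, of which there were 9 rises, called genes whose strain difference was also called, and per gene list up to 3 called members and up to 3 others with the smallest p. All other genes were chosen after their values were seen. The members and the 21 gene lists were chosen with earlier results of these data known. Alternatives concerned the prior, array weights, centring, quantile normalisation, a level filter, an additive model, blocks, left-out arrays, the gcRMA tables and the probe sets of a gene. The authors' own tables of folds and p-values were not used.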

Additional observations from a re-analysis of the deposited data

Results flagged for a closer look

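Among 136 groups of 4 embryos over 34 named genes, 9 held a value that stood far from the other 3 of its group relative to the group's range, where chance alone marks about 1 in 20 groups. In wild types these were Cecr2 in FVB/N embryo 2 (8.51, log2), Csn3 in BALB/cCrl embryo 1 (7.87), Alx1 in BALB/cCrl embryo 1 (7.80), Pof1b in embryo 3 of BALB/cCrl (5.29) and embryo 3 of FVB/N (5.24), Aldh1a7 in FVB/N embryo 3 (5.87), Airn in BALB/cCrl embryo 4 (8.02) and Ncapd2 in BALB/cCrl embryo 3 (10.61). In mutants it was Igfbp2 in FVB/N embryo 4 (11.92). For Csn3 the other 3 wild types were nearly identical, so a small gap sufficed.

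Cdk5rap1 was set apart by the test of the strain difference, which was 3.38 ± 0.141 on the log2 scale (BALB/cCrl effect minus FVB/N effect, adjusted p = 3.9e-11 in limma). It was the 1 called gene with the same sign in each strain whose strain difference was also called, and all 4 FVB/N mutants were low.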

How the results depend on the processing

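Calls are counted here for the mean effect (205 probe sets), those off chromosome 6 with the same sign (120), the shared genes (66), BALB/cCrl (9), FVB/N (268), and the strain difference is given as the share of tested probe sets called (0.0755%). Array weights gave 436, 269 and 129, with 50 in BALB/cCrl and 0.153% for the strain difference. Without an intensity trend FVB/N gave 162 and the strain difference 0.0444%. Centring on the median gave 14 in BALB/cCrl, quantile normalisation 169 in FVB/N, and an additive model 136 on the mean effect. BALB/cCrl wild type 1 and mutant 4, the consecutively numbered embryos, as a block gave 374 and 190, with 27, 446 and 0.138% for the strains and their difference, and leaving both out gave 445 and 194, with 22, 455 and 0.0377%. With probe sets of a mean level of at least 5 alone, 0.114% of those tested were called for the strain difference. Without FVB/N mutants 3 and 4 the counts were 70, 36 and 24, with 42 in FVB/N and 0.0333% for the difference. The gcRMA tables gave 37, 16 and 10, with 55 in FVB/N and 0.0266% for the difference. Leaving out 1 array at a time gave 98 to 759 on the mean effect, 54 to 343 off chromosome 6, 35 to 118 shared genes, 8 to 115 in BALB/cCrl, 55 to 471 in FVB/N and 0.0311% to 0.304% for the difference. The highest of the first 5 counts came without BALB/cCrl mutant 4 and the lowest of the first 3 without BALB/cCrl mutant 3. FVB/N was lowest without FVB/N wild type 2, and the difference was lowest without BALB/cCrl mutant 1 and highest without BALB/cCrl wild type 3. Rises made up 33.2% of the called probe sets, against 65.5% without BALB/cCrl mutant 4, 65.6% also without BALB/cCrl wild type 1, 50.5% with that pair as a block and 23.9% after median centring. The causes were not tested.

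Same-numbered embryos did not deviate together: 6 of 24 pairs had r above 0.1 (range -0.145 to 0.169) and 1 array was closest to its own number in every other group, so the numbers do not pair the samples. With the replicate number as a block, 177 probe sets were called on the mean effect, 62 shared genes were found and the strain difference gave 0.198%. Beyond the counts above, no shared gene reversed its direction under any alternative run. Of the 66 shared genes, 21 were called in fewer than 8 of the 16 fits without 1 array, Hinfp and Zfp52 least often (3 of 16). Dim probe sets, such as those of Hnmt and Adgrb3, limit what their small differences can show.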

Other observations

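A further 34 genes off chromosome 6 were called with the same sign in each strain through a probe set other than their brightest one, and were chosen here after their values were seen. Kctd12b, a potassium channel tetramerisation domain gene, fell by 0.58 ± 0.078 (log2, SE) and Fam241a by 0.60 ± 0.101 (adjusted p = 0.0011 and 0.0081 in limma). The semaphorin gene Sema3a fell by 0.35 ± 0.066, the ephrin receptor gene Epha4 by 0.38 ± 0.074, the sensory neuron factor gene Pou4f1 by 0.44 ± 0.094 and the RNA-binding protein gene Elavl2 by 0.24 ± 0.051. Also lower were the growth factor genes Vegfc (-0.32 ± 0.067), Vegfd (-0.37 ± 0.080), Pdgfc (-0.35 ± 0.076) and the Kit ligand gene Kitl (-0.39 ± 0.086). The cell cycle inhibitor and p53 target Cdkn1a fell by 0.33 ± 0.062 and the lipid desaturase gene Scd1 by 0.38 ± 0.067 (adjusted p = 0.017 and 0.012). Peg3, a paternally expressed imprinted gene, rose by 0.24 ± 0.042 and Plod2, a collagen-modifying enzyme, by 0.39 ± 0.073 (adjusted p = 0.012 and 0.020). Since the brightest probe set of each of these genes was not called, their probe sets disagree on the call.

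The called genes were spread over the genome. Of all genes off chromosome 6, 0.446% were called (76 of 17039). The highest shares were those of chromosome 1 (10 of 1057 genes, 0.95%), chromosome 10 (6 of 860, 0.7%) and chromosome 16 (4 of 593, 0.67%). On the X chromosome 3 of 617 were called (0.49%), on chromosome 11 2 of 1443 (0.14%) and on chromosome 15 0 of 724. Differences between chromosomes were not tested. Relative to the mean of the wild types of its strain, the median over the 57 shared falls lay between -0.294 and -0.366 in BALB/cCrl mutants and between -0.272 and -0.471 in FVB/N mutants. FVB/N mutants 3 and 4 had the lowest medians. These medians describe genes chosen on the same arrays.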
